A study of Arabidopsis thaliana with 27 samples.

Results

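The 10 genes described here take up iron, answer to iron shortage or store iron in Arabidopsis thaliana. They were chosen by name and role, with earlier results of these data known, and matched by gene identifier, 10 of 33977 genes in the count tables: IRT1 (AT4G19690), FRO2 (AT1G01580), FIT (AT2G28160), bHLH38 (AT3G56970), bHLH39 (AT3G56980), bHLH100 (AT2G41240), bHLH101 (AT5G04150), IMA1 (AT1G47400), NAS4 (AT1G56430) and FER1 (AT5G01600). The RNA-seq data came from epi-lines, the progeny of a cross between a Columbia-0 wild-type (WT) mother and an msh1 T-DNA insertion mutant. MSH1 is an organellar protein that keeps mitochondrial and plastid genomes stable. Plants of the second generation that carried MSH1 were selfed, so the lines compared carry MSH1 and differ from WT in their descent from an msh1 parent. Epi 8 and Epi 24 descended from 1 cross and Epi 10 from another, so each line is a single family. The 27 libraries formed 9 groups of 3 plants each. They were root of Epi 8, Epi 24 and WT, sampled after 10 days on 0.5 strength MS medium, rosette leaf of Epi 8, Epi 10 and WT at bolting, and floral stem of Epi 8, Epi 24 and WT at 6 weeks. Leaf and stem plants grew on peat mix with 12 hours of light at 22 °C. The leaf labels give the stage and no age, and the methods state a leaf age for Epi 8 and WT only. No iron treatment was applied to any group, and iron content was not measured, so every level below belongs to plants on one iron supply per organ. Organ cannot be told apart from age, growth medium or sequencing depth in this design.

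Arabidopsis acidifies the soil around its roots, reduces ferric iron at the surface of epidermal cells and imports the ferrous iron. FRO2 is the ferric chelate reductase and IRT1 the ferrous iron transporter of that pathway. FIT is the basic helix-loop-helix (bHLH) transcription factor that drives both genes, and it works as a dimer with one of the 4 bHLH factors of subgroup Ib, bHLH38, bHLH39, bHLH100 and bHLH101, whose own transcripts accumulate in root and leaf when iron is short. IMA1 encodes a small peptide that signals iron deficiency. NAS4 is a nicotianamine synthase, which makes the chelator that carries iron within and between cells. FER1 encodes a ferritin, the plastid protein that stores iron, and its transcript is known to accumulate when iron is in excess.

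The genes lie on all 5 chromosomes of the TAIR10 assembly. IRT1 occupies chromosome 4, 10707344 to 10709015, on the plus strand, FRO2 chromosome 1, 208995 to 213082, on the plus strand, and FIT chromosome 2, 12004658 to 12006276, on the plus strand. bHLH38 (chromosome 3, 21084035 to 21085245) and bHLH39 (chromosome 3, 21086390 to 21087710) stand in tandem on the minus strand with 1144 bases between them. bHLH100 lies on chromosome 2, 17198037 to 17199454, and bHLH101 on chromosome 5, 1138410 to 1139633, both on the minus strand. IMA1 (chromosome 1, 17385707 to 17386485, plus strand) has its relative IMA2 1876 bases away. NAS4 lies on chromosome 1, 21136835 to 21138277, on the plus strand, and FER1 on chromosome 5, 227953 to 230051, on the minus strand. bHLH38, bHLH101 and FER1 each overlap an annotated gene on the other strand. The library kit does not mark strand, so reads within these overlaps cannot be assigned to a gene by strand. The strand setting of the read counting is not given in the sources used here.

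The 4 subgroup Ib genes are often treated as one unit, so the 250 bases before their annotated starts are shown, from the TAIR10.1 reference, 5′ to 3′ on the strand of the gene. Capitals mark each match to the E-box, CANNTG, the hexamer that bHLH proteins bind; the G-box, CACGTG, is its palindromic form in which the middle bases are CG. The last base of each line is the base just before the gene.
bHLH38: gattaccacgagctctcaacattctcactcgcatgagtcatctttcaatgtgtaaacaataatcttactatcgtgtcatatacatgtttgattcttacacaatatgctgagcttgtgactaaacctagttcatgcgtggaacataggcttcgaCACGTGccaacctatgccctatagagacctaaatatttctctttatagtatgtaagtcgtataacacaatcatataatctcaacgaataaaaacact
bHLH39: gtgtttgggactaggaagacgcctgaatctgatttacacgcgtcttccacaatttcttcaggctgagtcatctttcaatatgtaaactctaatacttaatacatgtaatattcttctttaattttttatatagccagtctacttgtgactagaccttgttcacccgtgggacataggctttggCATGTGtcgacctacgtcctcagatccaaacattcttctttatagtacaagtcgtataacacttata
bHLH100: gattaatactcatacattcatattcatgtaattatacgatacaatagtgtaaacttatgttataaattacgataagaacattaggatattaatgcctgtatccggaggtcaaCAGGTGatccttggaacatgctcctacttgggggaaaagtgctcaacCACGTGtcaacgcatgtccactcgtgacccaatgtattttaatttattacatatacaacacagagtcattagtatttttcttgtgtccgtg
bHLH101: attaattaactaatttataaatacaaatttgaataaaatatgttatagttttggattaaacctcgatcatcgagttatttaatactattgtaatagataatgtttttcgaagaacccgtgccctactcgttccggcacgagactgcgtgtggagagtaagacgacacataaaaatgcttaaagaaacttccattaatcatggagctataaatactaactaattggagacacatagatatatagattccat
bHLH38 and bHLH100 each held a G-box, which began 97 and 91 bases before the start. bHLH39 held CATGTG at 67 bases, and bHLH101 held no E-box. Over 27443 upstream windows of the same length, 6.49% held a G-box and 55.3% an E-box, with both strands searched; every G-box is also an E-box. The evening element AAAATATCT and the CCA1-binding site AAAAATCT, which occur in 2.36% and 6.69% of windows, were found in none of the 10 genes. These matches describe letters only.

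Sequencing gave 18524351 to 20041205 assigned reads in the root libraries, 48098795 to 90808615 in leaf and 18465252 to 21219383 in floral stem. Levels are given as CPM, a gene's reads over all assigned reads at a fixed scale common to all libraries, after scaling by the trimmed mean of M-values (TMM). CPM of the iron genes were scaled over the 9 libraries of an organ. CPM of marker and clock genes were scaled over all 27 libraries, so the 2 kinds are not on one scale. A count of 3, the limit that a count of 0 allows, was worth 0.1497 to 0.1619 CPM in root, 0.033 to 0.0624 CPM in leaf and 0.1414 to 0.1625 CPM in floral stem, for counting error only. Markers placed the organs as labelled. The summed level of 5 root epidermis markers was 43.2 to 62.6 CPM in WT root, 1.47 to 1.82 CPM in WT leaf and 0.221 to 0.848 CPM in WT floral stem, and 4 photosynthetic markers summed to 85.0 to 146.0 CPM in WT root, 16300 to 20500 CPM in WT leaf and 27600 to 31600 CPM in WT floral stem.

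In root, the uptake genes were highest in Epi 8, and none of the 10 genes passed the test. IRT1 had 349, 139 and 149 CPM in Epi 8 roots, against 103, 156 and 88.1 CPM in Epi 24 roots and 219, 82.6 and 68 CPM in WT roots. FRO2 had 238, 86.7 and 88.9 CPM in Epi 8 roots, against 56.8, 77.9 and 57.9 CPM in Epi 24 roots and 109, 39.6 and 38 CPM in WT roots. In both Epi 8 and WT, plant 1 stood far above its 2 line mates for both genes, while the other 2 Epi 8 plants lay between the WT extremes.

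Fitted over the 9 root libraries with edgeR, FRO2 was 2.21-fold higher in Epi 8 than in WT (log2 fold change 1.15 ± 0.402, SE, 95% interval of the fold 1.28 to 3.81, unadjusted p = 0.0123, adjusted p = 0.821). IRT1 was 1.72-fold higher (log2 0.78 ± 0.403, interval 0.993 to 2.97, unadjusted p = 0.0711, adjusted p = 0.895). Both adjusted p-values are Benjamini-Hochberg values from edgeR's quasi-likelihood test over 20787 genes. The 95% intervals of fold changes, here and below, are normal approximations from the SE. They are narrower than that test would give. The 2 genes moved together from plant to plant: the ratio of IRT1 to FRO2 stayed between 1.46 and 2.09 in the 9 root plants, although IRT1 itself spanned 68 to 349 CPM.

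**Figure D1:**
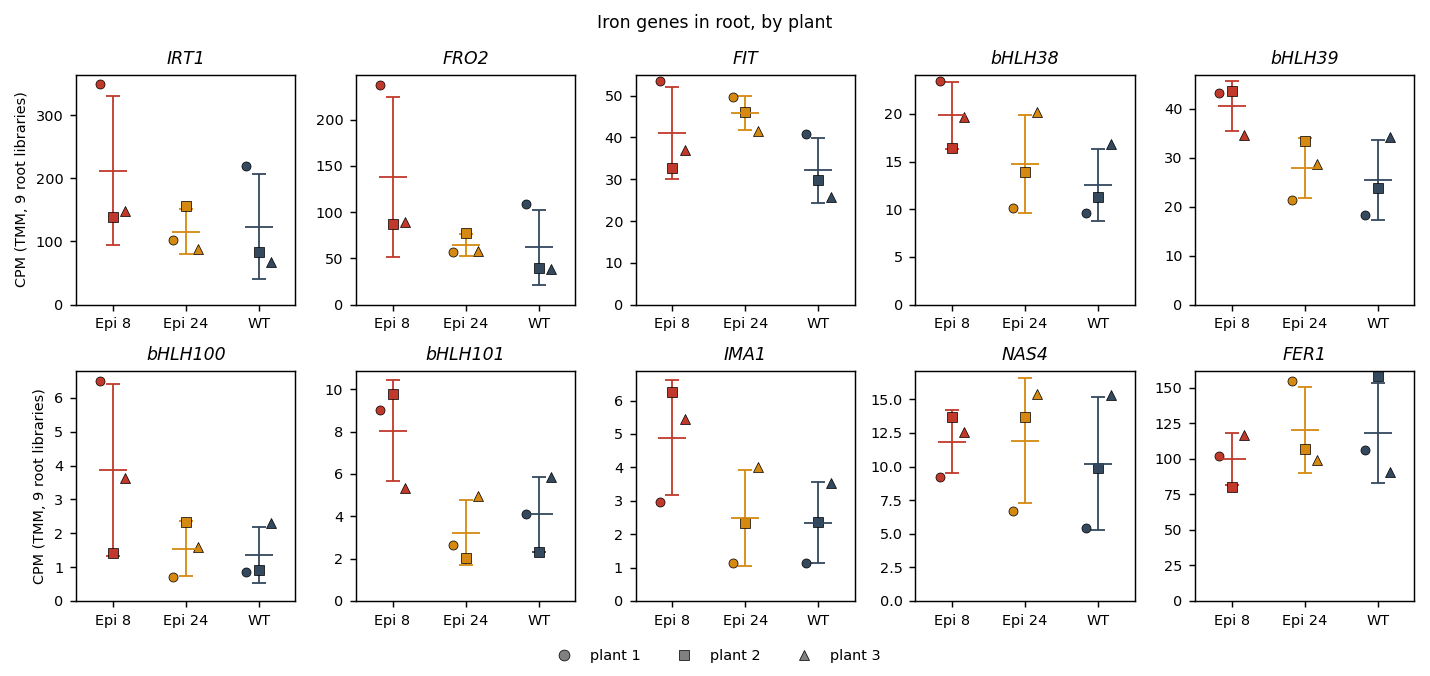
Level in CPM (TMM scaling over the 9 root libraries) of each of the 10 genes in root plants of Epi 8, Epi 24 and WT. Symbols are single plants, horizontal bars the mean and whiskers 1 SD (n = 3). IRT1 and FRO2 are highest in plant 1 of Epi 8 (349 and 238 CPM), and bHLH39 is the one gene whose 3 Epi 8 plants (34.6 to 43.7 CPM) lie above all WT plants (18.2 to 34.3 CPM).

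Mean levels of the 4 subgroup Ib genes were also highest in Epi 8. bHLH39 had 43.1, 43.7 and 34.6 CPM in Epi 8 roots, against 21.3, 33.4 and 28.8 CPM in Epi 24 roots and 18.2, 23.8 and 34.3 CPM in WT roots. No Epi 8 plant overlapped the plants of either other line, although the lowest Epi 8 plant and the highest WT plant almost met. bHLH38 had 23.4, 16.4 and 19.7 CPM in Epi 8 roots, against 10.1, 13.9 and 20.2 CPM in Epi 24 roots and 9.61, 11.3 and 16.8 CPM in WT roots. bHLH101 had 9.02, 9.79 and 5.34 CPM in Epi 8 roots, against 2.65, 2.04 and 4.96 CPM in Epi 24 roots and 4.1, 2.32 and 5.85 CPM in WT roots. Its lowest Epi 8 plant lay below the highest WT plant and above all Epi 24 plants. bHLH100 was scarce, with 6.5, 1.43 and 3.64 CPM in Epi 8 roots, against 0.701, 2.32 and 1.6 CPM in Epi 24 roots and 0.864, 0.907 and 2.31 CPM in WT roots, and its groups overlapped.

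Against WT, the log2 fold changes in Epi 8 root were 0.67 ± 0.217 for bHLH39, 0.66 ± 0.261 for bHLH38, 0.98 ± 0.404 for bHLH101 and 1.5 ± 0.641 for bHLH100 (SE). Their unadjusted p-values were 0.00761, 0.0242, 0.0292 and 0.0337, and the edgeR adjusted values lay between 0.766 and 0.875. FIT, the partner of these factors, had 53.6, 32.8 and 36.9 CPM in Epi 8 roots, against 49.6, 46.2 and 41.5 CPM in Epi 24 roots and 40.8, 29.9 and 25.8 CPM in WT roots. Its log2 fold change was 0.35 ± 0.197 in Epi 8 and 0.51 ± 0.197 in Epi 24. All 3 Epi 24 plants lay above all WT plants, which those of Epi 8 did not.

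IMA1 had 2.97, 6.27 and 5.44 CPM in Epi 8 roots, against 1.15, 2.32 and 4 CPM in Epi 24 roots and 1.13, 2.37 and 3.54 CPM in WT roots (Epi 8 against WT, log2 1.06 ± 0.516, unadjusted p = 0.0591 in edgeR). Plant 1 was the lowest of its line for IMA1 in all 3 lines, the reverse of IRT1 and FRO2 in Epi 8 and WT. NAS4 had 9.22, 13.7 and 12.6 CPM in Epi 8 roots, against 6.66, 13.7 and 15.4 CPM in Epi 24 roots and 5.45, 9.93 and 15.3 CPM in WT roots, again with plant 1 lowest in each line, and the lines overlapped. FER1 had 102, 80.5 and 117 CPM in Epi 8 roots, against 155, 107 and 98.9 CPM in Epi 24 roots and 106, 158 and 90.7 CPM in WT roots. It was the only one of the 10 genes whose fitted level was lower in Epi 8 than in WT (log2 -0.24 ± 0.213), within the spread between plants.

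By the threshold of adjusted p under 0.05 and an absolute log2 fold change of at least 0.5, 0 of the 10 genes were called in Epi 8 against WT root by edgeR, and 0 by DESeq2, as were 0 of all 20787 genes tested by edgeR (0%). Shares of all genes called are those of edgeR, here and below, and no share is given for DESeq2. At an unadjusted p under 0.05 with the same fold limit, FRO2 and the 4 subgroup Ib genes passed, 5 of 10 and all of them higher, where 3.02% of all genes passed and 1.12% passed as higher. The fitted change was upward in 9 of the 10 genes, with a median log2 fold change of 0.73 against 0 over all genes, of which 49.9% were above 0. bHLH39 was the only one of the 10 whose plants did not overlap, as was the case for 13.3% of all genes. The count of 5 was 6 with DESeq2 and with only the 6 libraries compared. It was 7 with no filter on low counts and with plant number as a block. Without plant 2 or 3 of Epi 8 or plant 3 of WT it stayed at 5. It fell to 2 without plant 1 of Epi 8, to 3 without plant 1 of WT and to 1 without plant 2 of WT. It was 2 with plants 1 of both lines left out, a setting chosen after seeing the data. In that last setting 9 of 10 genes were above 0, with a median of 0.54.

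The summed level of the 5 root epidermis markers, the cells that take up iron, was 43.8 to 56.2 CPM in Epi 8 roots and 43.2 to 62.6 CPM in WT roots. Sums of circadian clock genes lay further apart: 6 evening genes summed to 162 to 174 CPM in Epi 8 roots, 164 to 174 CPM in Epi 24 roots and 117 to 151 CPM in WT roots, and 4 morning genes to 18.7 to 24.4, 23.8 to 36.9 and 26.2 to 37.4 CPM in the same order of lines. All 6 evening genes and none of the 4 morning genes were above WT in Epi 8 root, none of them called. At an unadjusted p under 0.05 with the same fold limit, 3 of the 6 evening genes and 3 of the 4 morning genes passed. Of all genes, 3.02% passed. The part of the clock genes in the iron genes' levels was not tested. In bulk tissue, more cells of a type and more transcript per cell cannot be told apart.

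In Epi 24 roots the levels lay closer to those of WT. None of the 10 genes was called against WT by edgeR or DESeq2 (0% of all genes by edgeR), and FIT alone passed the unadjusted rule (unadjusted p = 0.0209, edgeR adjusted p = 0.675), where 3.7% of all genes did. It was also the 1 gene of the 10 without overlap between the lines, as 10.9% of all genes were. FIT no longer passed without Epi 24 plant 1, WT plant 2 or WT plant 3. The log2 fold changes of the 10 genes ran from -0.34 for bHLH101 to 0.51 for FIT, with a median of 0.11, and those of IRT1 and FRO2 were -0.09 ± 0.401 and 0.04 ± 0.399. Without WT plant 1 the FRO2 value became 0.72 and that of IRT1 0.62. The comparison with Epi 8 rests on the same 3 WT plants.

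Set directly against Epi 24, Epi 8 roots had more transcript of the uptake genes and of the subgroup Ib genes, by 1.35-fold for bHLH38 to 2.51-fold for bHLH100. The log2 fold changes were 1.32 ± 0.410 for bHLH101, 1.1 ± 0.401 for FRO2, 0.88 ± 0.403 for IRT1 and 0.54 ± 0.216 for bHLH39, with unadjusted p-values of 0.00579, 0.015, 0.0463 and 0.0249 and edgeR adjusted values of 0.295 to 0.432. None was called by edgeR or DESeq2, where 0.0192% of all genes were. These 4 were the ones to pass the unadjusted rule, against 5.2% of all genes and 1.6% as higher, and FRO2, bHLH39 and bHLH101 had no overlap between the lines and were higher, against 17% of all genes without overlap and 8.47% as higher. The count of 4 was 3 with DESeq2. It was 5 with no filter on low counts, with plant number as a block and with only the 6 libraries compared. With 1 plant left out it ran from 1 (Epi 24 plant 1) to 5 (Epi 24 plant 2). It was 2 without Epi 8 plant 1 and 2 without plants 1 of Epi 8 and WT. FIT went the other way (log2 -0.15 ± 0.195), within the spread. Markers of other root cells moved with the same comparison. The 3 secondary wall cellulose synthases summed to 66.0 to 85.7 CPM in Epi 8 roots, 96.8 to 158 CPM in Epi 24 roots and 77.5 to 106 CPM in WT roots, with all 3 lower in Epi 8 than in Epi 24 by the unadjusted rule. SUC2, a companion cell marker, had 47.7 to 53.1 CPM in Epi 8 roots, 59.3 to 115 CPM in Epi 24 roots and 51.1 to 62.8 CPM in WT roots, and passed that rule too. The 2 endodermis markers, of which 1 passed it, summed to 94.0 to 123 CPM in Epi 8 roots, 125 to 198 CPM in Epi 24 roots and 104 to 161 CPM in WT roots. None of these markers was called, and their part in the iron genes' levels was not tested.

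**Figure D2:**
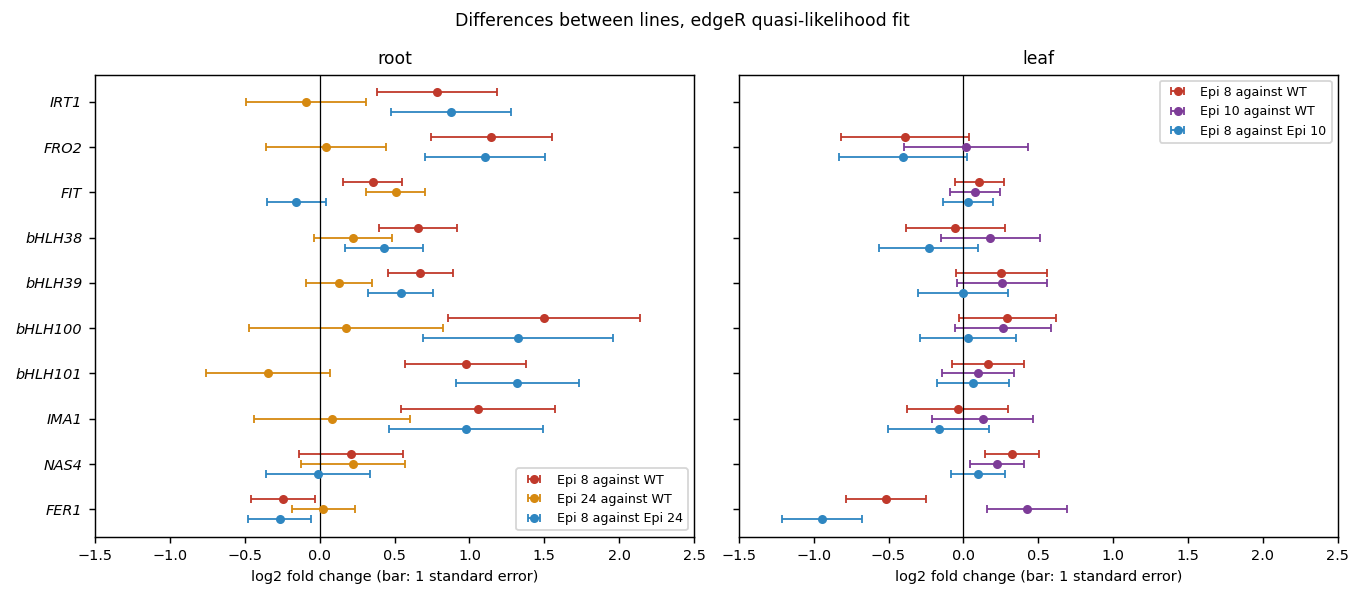
Log2 fold change of each gene between lines in root (left) and leaf (right), points with 1 standard error from the quasi-likelihood fit. In root, Epi 8 lies above WT for 9 of 10 genes, from 0.21 for NAS4 to 1.5 for bHLH100, while Epi 24 stays within -0.34 and 0.51 of WT. In leaf the values are small, and FER1 has the widest separation between lines.

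Of a wider list of 55 iron genes, 47 were tested in root. None was called by edgeR in Epi 8 against WT, as was none of all genes (0%), and 6 of 47 passed the unadjusted rule, all 6 higher, where 3.02% of all genes passed and 1.12% as higher. 28 were above WT and 19 below, with a median log2 fold change of 0.10. F6'H1, which makes the coumarins that roots secrete to mobilise iron, had 166, 122 and 113 CPM in Epi 8 roots, against 105, 107 and 110 CPM in Epi 24 roots and 102, 66.3 and 59.8 CPM in WT roots, with no overlap among the Epi 8 plants and those of either other line, as for 13.3% of all genes against WT and 17% against Epi 24. It was 1.76-fold higher in Epi 8 than in WT (log2 0.81 ± 0.191, unadjusted p = 0.000722, edgeR adjusted p = 0.548). DESeq2 gave it an adjusted p of 0.0288, so that tool called it, with no share of all genes given beside the call. S8H, a later enzyme of that route, had 19.5, 2.96 and 2.45 CPM in Epi 8 roots, against 2.32, 1.01 and 0.269 CPM in WT roots (log2 2.79 ± 0.841), a value carried mainly by Epi 8 plant 1. IRT2, a close relative of IRT1, had 18.1, 4.49 and 6.59 CPM in Epi 8 roots, against 3.16, 1.82 and 1.44 CPM in Epi 24 roots and 3.94, 3.53 and 4.73 CPM in WT roots. Its log2 fold change was 1.26 ± 0.453 against WT and 2.18 ± 0.474 against Epi 24, where the edgeR adjusted p was 0.219 and the plants did not overlap, as for the same 17% of all genes. BTSL1, a ubiquitin ligase known to act on FIT, was higher by 0.75 ± 0.255 on the log2 scale.

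Genes of the same uptake step did not all follow. AHA2, the proton pump that acidifies the root surface, had 1290, 1100 and 1300 CPM in Epi 8 roots, against 1450, 2110 and 1480 CPM in Epi 24 roots and 1590, 1040 and 1230 CPM in WT roots. NRAMP1, a manganese and iron transporter, was higher in Epi 24 than in WT (log2 0.38 ± 0.136, edgeR adjusted p = 0.673) and lower in Epi 8 than in Epi 24 (log2 -0.45 ± 0.136, edgeR adjusted p = 0.295). YSL2, a transporter of metal-nicotianamine complexes, had a log2 value of -0.82 ± 0.258 in Epi 8 against Epi 24. In Epi 24 against WT, F6'H1 (log2 0.50 ± 0.191) and ABCG37, which exports coumarins (log2 0.41 ± 0.17), were above WT and VTL2, of the vacuolar iron transporter-like family, was below (log2 -0.82 ± 0.352), none of them called.

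**Figure D3:**
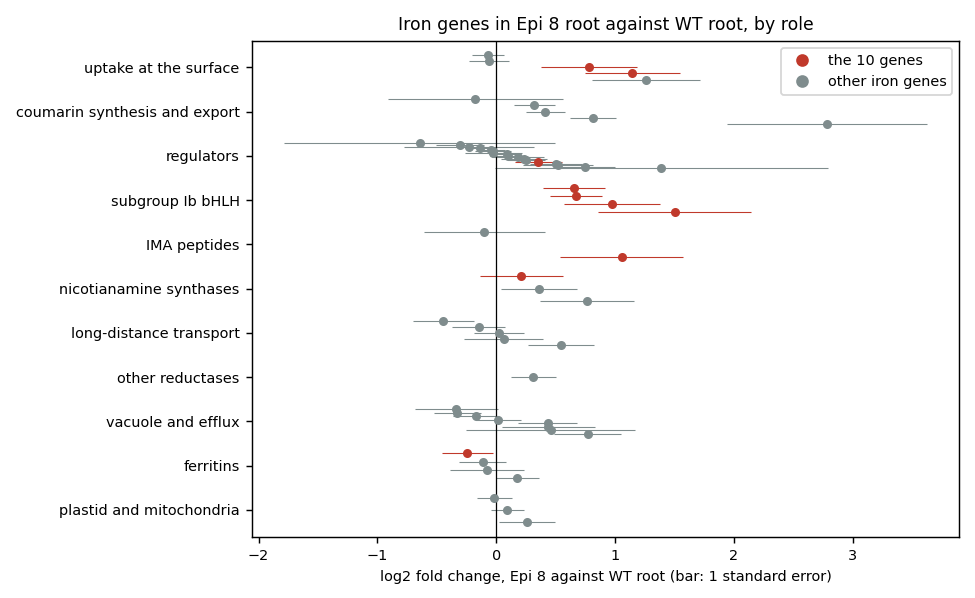
Log2 fold change in Epi 8 root against WT root of the 10 genes (red) and the 47 other iron genes tested (grey), arranged by role, with 1 standard error. Single uptake, coumarin and subgroup Ib genes reach the highest values, up to 2.79 for S8H, which rests mainly on Epi 8 plant 1. The median is 0.82 for the 4 subgroup Ib genes. Among the other iron genes it is 0.41 for coumarin and -0.06 for uptake genes (1 higher, 2 lower). It is -0.08 for the other ferritins and 0.10 for organelle genes.

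Profiles over the 9 root plants were compared by the root mean square difference of centred log2 CPM. Nearest to the mean of IRT1 and FRO2, whose own SD over plants was 0.73, were PIRL8 (0.276), GRF11 (0.342), NAS2 (0.344), AT5G40590 (0.362) and GLP5 (0.368). NAS2, a nicotianamine synthase on the wider list, had 146, 65.1 and 80.3 CPM in Epi 8 roots, against 54.1, 38.9 and 60.9 CPM in Epi 24 roots and 107, 36.3 and 28 CPM in WT roots. As with IRT1, plant 1 was the highest in Epi 8 and in WT. Nearest to the mean of the 4 subgroup Ib genes, with an SD of 0.557, were AT4G36000 (0.191), TINY2 (0.229), AT1G61640 (0.252), AT5G20640 (0.29) and IMPL1 (0.292), none of them on the iron lists. These distances describe 9 plants and carry no test.

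In leaf the uptake genes were silent or nearly so, and for the regulators, IMA1 and NAS4 the plants of the lines overlapped. IRT1 had 0 counts in all Epi 8 and WT plants and 2 counts in 1 Epi 10 plant, and was not tested. FRO2 lay between 0.184 and 0.638 CPM in the 9 leaf plants. bHLH38 had 11.9, 18.9 and 10.4 CPM in Epi 8 leaves, against 9.39, 18.6 and 20.6 CPM in Epi 10 leaves and 14.1, 9.46 and 19.3 CPM in WT leaves. bHLH100 had 11.9, 27.2 and 18.9 CPM in Epi 8 leaves, against 11.1, 22.6 and 23.1 CPM in Epi 10 leaves and 12.8, 14.8 and 19.7 CPM in WT leaves. In each line the plants differed by more than the lines did. IMA1 had 6.41, 10.8 and 11.8 CPM in Epi 8 leaves, against 5.54, 12.2 and 14.7 CPM in Epi 10 leaves and 8.09, 8.81 and 12.8 CPM in WT leaves, and NAS4 had 35.7, 42.3 and 33.7 CPM in Epi 8 leaves, against 26.4, 41.5 and 36.5 CPM in Epi 10 leaves and 27, 25.6 and 36.7 CPM in WT leaves.

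FER1 was the exception, in the comparisons with Epi 10. It had 41.6, 18.1 and 18.8 CPM in Epi 8 leaves, against 55.9, 44.7 and 50.7 CPM in Epi 10 leaves and 34.2, 40.1 and 38.3 CPM in WT leaves. All Epi 10 plants lay above all WT plants and all Epi 8 plants, an absence of overlap seen in 13.8% and 13.7% of all genes. Of the Epi 8 plants, 2 lay well below every other leaf, while plant 1, at 41.6 CPM, lay above all WT plants. The log2 fold change was -0.94 ± 0.269 in Epi 8 against Epi 10 (fold 0.519, interval 0.361 to 0.747, unadjusted p = 0.00513, edgeR adjusted p = 0.621), -0.52 ± 0.268 in Epi 8 against WT (adjusted p = 0.299) and 0.43 ± 0.266 in Epi 10 against WT (adjusted p = 0.702). With each plant left out in turn, the Epi 8 against Epi 10 value ran from -1.46 to -0.74. It was called only without Epi 8 plant 1, at -1.46 with an edgeR adjusted p of 0.0108.

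Of the 3 other ferritin genes, FER3 and FER4 lay lower in Epi 8 leaves than in WT leaves and FER2 did not. FER3 had 47.9, 40.9 and 40.3 CPM in Epi 8 leaves, against 71, 59.3 and 58.9 CPM in Epi 10 leaves and 73.7, 70.9 and 65.2 CPM in WT leaves, with Epi 8 below every other plant; 25.7% of all genes had no overlap between Epi 8 and WT leaves. It fell by 0.70 ± 0.105 on the log2 scale against WT (fold 0.615, edgeR adjusted p = 0.0277), the one iron gene outside the 10 that edgeR called between lines, where 0.953% of all genes were called and 0.773% as lower. The call was lost without Epi 8 plant 1 or 2 or WT plant 1 or 2 (adjusted p = 0.0704 to 0.116), with a log2 value of -0.79 to -0.65 over the 6 fits that each left out 1 plant. FER4, the ferritin also found in mitochondria, had 15.3, 8.69 and 9.73 CPM in Epi 8 leaves, against 24, 20.4 and 17.5 CPM in Epi 10 leaves and 22.3, 21 and 16 CPM in WT leaves, again with no overlap. Its log2 value was -0.82 ± 0.213 against WT (edgeR adjusted p = 0.0888) and -0.87 ± 0.213 against Epi 10 (adjusted p = 0.448). DESeq2 called both (adjusted p = 0.00674 and 0.0181), with no share of all genes given beside the calls. FER2, a ferritin known from seeds, was scarce in leaf, with 0.139 to 0.255 CPM in Epi 8 leaves, 0.235 to 0.494 CPM in Epi 10 leaves and 0.107 to 0.308 CPM in WT leaves. Its log2 fold change in Epi 8 against WT was 0.03 (95% interval -0.99 to 1.05), and its plants overlapped in each comparison of leaf lines.

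**Figure D4:**
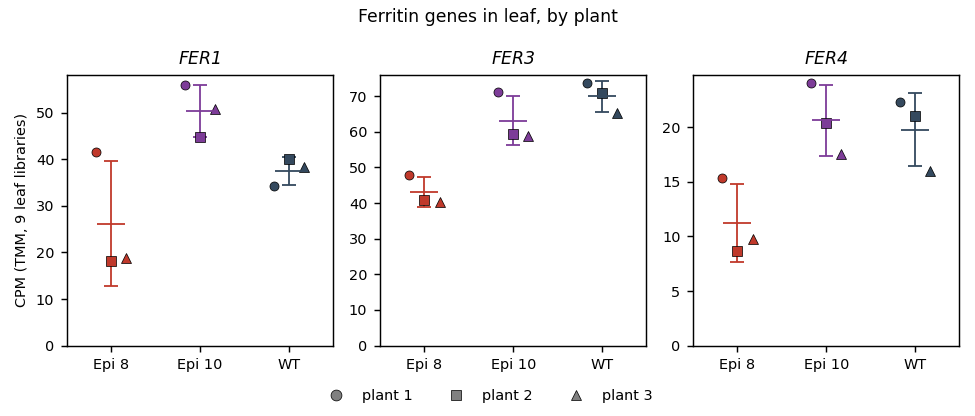
Level in CPM (TMM scaling over the 9 leaf libraries) of FER1, FER3 and FER4 in leaf plants of Epi 8, Epi 10 and WT, with mean and SD (n = 3). Every Epi 8 plant is below every Epi 10 and WT plant for FER3 (40.3 to 47.9 CPM) and FER4 (8.69 to 15.3 CPM), and 2 of 3 Epi 8 plants are for FER1. Epi 8 plant 1, at 41.6 CPM of FER1, is above every WT plant.

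By the call threshold none of the 9 genes tested in leaf was called in Epi 8 against WT, in Epi 10 against WT (0% of all genes) or in Epi 8 against Epi 10 (0% of all genes) by edgeR or DESeq2. At an unadjusted p, 0 of 9 passed in Epi 8 against WT, against 7.11% of all genes, 0 of 9 in Epi 10 against WT, against 2.25%, and FER1 alone in Epi 8 against Epi 10, against 1.5% and 0.823% as lower. All 9 lay above WT in Epi 10, by 0.02 to 0.43 on the log2 scale, where 47.4% of all genes lay above WT. Of the wider list, 43 were tested. BTSL2, a relative of BTSL1, was above WT in Epi 8 (log2 0.45 ± 0.157, adjusted p = 0.16), and MTP8, a vacuolar manganese transporter, had only 0 to 5 counts per WT leaf plant. In Epi 10, YSL1 and YSL3, which move metal-nicotianamine complexes, were above WT by 0.54 ± 0.192 and 0.35 ± 0.117 (both with edgeR adjusted p = 0.683), and NAS3, a nicotianamine synthase, was above WT by 1.02 ± 0.421, uncalled as well. YSL1 had a log2 value of -0.54 and BTSL1 of 0.45 ± 0.183 in Epi 8 against Epi 10, neither called. Evening clock genes summed to 1070 to 1090 CPM in Epi 8 leaves, 958 to 1030 CPM in Epi 10 leaves and 918 to 1040 CPM in WT leaves, and morning genes to 11.8 to 13.9, 10.3 to 13.2 and 6.47 to 10.6 CPM in that order. By the unadjusted rule, 2 of 4 morning genes and 0 of 6 evening genes passed against WT in Epi 8 and in Epi 10. The shares of all genes were 7.11% and 2.25%. The part of the clock genes in the ferritin levels was not tested. Over the 9 leaf plants, the profile of the subgroup Ib genes (SD 0.356) was nearest to HB18 (0.176), PR5K (0.179), AT1G47395 (0.18), which is IMA2, NAS4 (0.188) and TPS9 (0.192).

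In floral stem most of the 10 genes were near the limit of counting, and FRO2, IMA1, NAS4 and FER1 were the 4 tested. NAS4 had 10.8, 0.647 and 0.78 CPM in Epi 8 stems, against 8.34, 0.883 and 1.83 CPM in Epi 24 stems and 3.16, 12.6 and 3.93 CPM in WT stems. A single plant in each line carried most of the signal. FER1 had 40, 110 and 83.6 CPM in Epi 8 stems, against 63.2, 79.6 and 192 CPM in Epi 24 stems and 84, 34.7 and 61.2 CPM in WT stems, and FRO2 lay between 0 and 0.667 CPM in 8 plants and at 2.02 CPM in WT plant 3. None of the 4 was called by edgeR or DESeq2 in Epi 8 against WT (0.0255% of all genes called), Epi 24 against WT (0%) or Epi 8 against Epi 24 (0.0153%), and none passed the unadjusted rule, which 7.23%, 5.08% and 14.2% of all genes did. Over the 3 comparisons, the 95% intervals of the log2 fold changes of FRO2, IMA1 and NAS4 reached from -4.06 to 2.96. Changes of several fold in these genes were not detectable at this depth and spread. FER1, with 673 to 3779 counts per stem plant, had narrower intervals, within -1.49 to 1.87.

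Among the wider list in stem, the nicotianamine-complex transporters YSL2 and YSL3 stood apart. YSL2 had 30.7, 15.2 and 19.5 CPM in Epi 8 stems, against 73.4, 89.1 and 132 CPM in Epi 24 stems and 19.6, 41.4 and 71.8 CPM in WT stems. YSL3 had 30.5, 17.5 and 20 CPM in Epi 8 stems, against 46.7, 72 and 94.6 CPM in Epi 24 stems and 20.9, 35.3 and 54.4 CPM in WT stems. For both genes the Epi 8 and Epi 24 plants did not overlap, as for 26.2% of all genes in that comparison. The log2 fold changes of Epi 8 against Epi 24 were -2.17 ± 0.454 and -1.65 ± 0.379, with edgeR adjusted p-values of 0.147 and 0.17. DESeq2 called both (adjusted p = 0.00035 and 0.0031), with no share of all genes given beside the calls. Against WT, the values of YSL2 were -1.02 in Epi 8 and 1.15 in Epi 24, and those of YSL3 -0.70 and 0.95, none called. The other genes of smallest p in stem were bHLH104 (-0.37) and NAS1 (2.21) in Epi 8 against WT, MYB10 (-0.72) and VTL1 (0.85) in Epi 24 against WT, and NAS1 (3.17) and AHA2 (0.52) in Epi 8 against Epi 24, where NAS1 rested on Epi 8 plant 1 (89.2 CPM, against 2.09 and 1.04 CPM in the other Epi 8 plants). Markers of stem cell types differed in level as well: 3 secondary wall cellulose synthases summed to 507 to 1660 CPM in Epi 8 stems, 3680 to 4300 CPM in Epi 24 stems and 1170 to 5930 CPM in WT stems, and a companion cell marker had a median of 162 CPM in Epi 8 stems, 316 CPM in Epi 24 stems and 186 CPM in WT stems. The 6 evening clock genes summed to 106 to 164 CPM in Epi 8 stems, 233 to 254 CPM in Epi 24 stems and 188 to 295 CPM in WT stems, and the 4 morning genes to 198 to 374 CPM in Epi 8 stems, 109 to 204 CPM in Epi 24 stems and 114 to 116 CPM in WT stems. In Epi 8 against WT stem, 5 of 6 evening genes, lower, and 4 of 4 morning genes, higher, passed the unadjusted rule, and none was called. The part of these markers in the levels of the iron genes in stem was not tested.

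The sharpest contrasts of these genes were between organs of WT. Levels per kilobase of exon, scaled over the 27 libraries, put IRT1 at 63.1 ± 42.6 CPM per kb in WT root, 0 in WT leaf and 0.145 ± 0.0908 in WT floral stem (SD, n = 3). FRO2 stood at 17.5 ± 11.4 CPM per kb in WT root, 0.203 ± 0.0305 in WT leaf and 0.34 ± 0.369 in WT floral stem. IRT1 was at least 6730-fold higher in WT root than in WT leaf, taking 3 counts over the 3 leaf plants as the limit, and FRO2 was 85.7-fold higher in WT root than in WT leaf and 52.4-fold higher than in WT floral stem. FIT was also highest in root, at 18.7 ± 4.45 CPM per kb in WT root, 3.92 ± 0.464 in WT leaf and 0.0136 ± 0.0236 in WT floral stem, the last from 1 count in 3 plants.

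The 4 subgroup Ib genes divided between root and leaf. bHLH100 was a leaf transcript, with 0.942 ± 0.567 CPM per kb in WT root, against 15.7 ± 3.54 in WT leaf, a log2 fold change of -4.06 ± 0.570. bHLH39 was higher in root, with 16.8 ± 5.38 CPM per kb in WT root, against 5.44 ± 1.37 in WT leaf (log2 1.63 ± 0.327). bHLH38 (9.32 ± 2.77 and 15.2 ± 5.2 CPM per kb in WT root and WT leaf) and bHLH101 (3.03 ± 1.3 and 2.62 ± 0.102 in the same order) were not called between them, with edgeR adjusted p-values of 0.106 and 0.676. The order of the tandem pair therefore turned round: the ratio of bHLH39 to bHLH38, in CPM, was 1.42 to 2.67 in the 9 root plants and 0.378 to 0.56 in the 9 leaf plants, with no overlap. In WT floral stem bHLH38 and bHLH100 had 0 counts. With stem set to a limit of 3 counts, bHLH38 was at least 176-fold and bHLH100 at least 18.9-fold higher in WT root than in WT floral stem. In WT leaf they were at least 286-fold and 313-fold higher than in WT floral stem. These bounds leave out the error of the root and leaf counts. bHLH39, with 2 counts in WT stems, was 533-fold higher in WT root (counting interval 147 to 4410), and FIT, with 1 count, 1350-fold (242 to 53300).

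IMA1 and NAS4 were highest in leaf. IMA1 stood at 2.42 ± 1.24 CPM per kb in WT root, 14.6 ± 3.74 in WT leaf and 1.32 ± 0.884 in WT floral stem, and NAS4 at 5.68 ± 2.73, 23.7 ± 4.81 and 4.95 ± 4.03 in the same organs. FER1 was abundant everywhere, at 66.6 ± 20.1 CPM per kb in WT root, 30.4 ± 2.53 in WT leaf and 45.4 ± 18.1 in WT floral stem, with overlap between root and stem and between stem and leaf. Within WT root the order of levels per kb was FER1, IRT1, FIT, FRO2, bHLH39, bHLH38, NAS4, bHLH101, IMA1 and bHLH100, in which only IRT1 and FIT did not overlap among neighbours. Within WT leaf it was FER1, NAS4, bHLH100, bHLH38, IMA1, bHLH39, FIT, bHLH101 and FRO2, with IRT1 at 0.

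**Figure D5:**
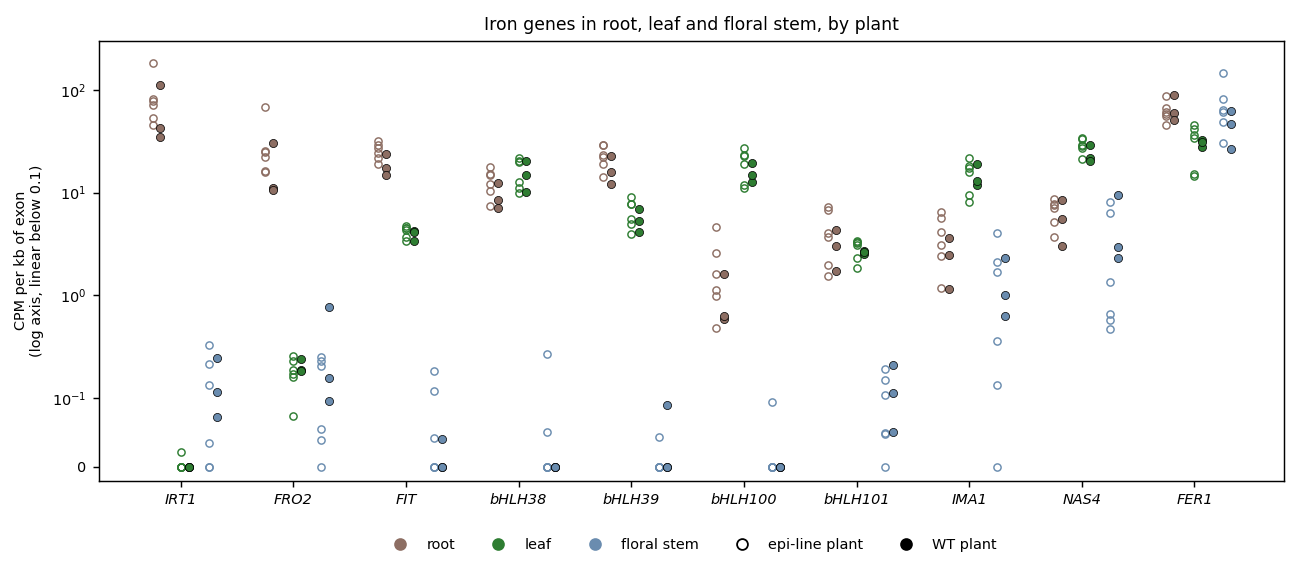
Level of each gene in CPM per kb of exon (scaling over the 27 libraries) in single plants of root, leaf and floral stem, filled for WT and open for the epi-lines, on a log axis that is linear below 0.1. IRT1 and FRO2 separate root from the other organs, bHLH100, IMA1 and NAS4 are highest in leaf, and FER1 stays between 14.6 and 145.0 in all 27 plants.

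Fitted over the 27 libraries, 8 of the 10 genes were called in WT root against WT leaf, where 68.5% of all genes were: IRT1, FRO2, FIT, bHLH39 and FER1 (log2 1.13 ± 0.396) higher, and bHLH100, IMA1 (log2 -2.59 ± 0.758) and NAS4 (log2 -2.06 ± 0.729) lower. In WT root against WT floral stem 7 of 10 were called, all higher, against 60.9% of all genes and 28.7% as higher. IMA1, NAS4 and FER1 were the 3 that were not, with edgeR adjusted p-values of 0.359, 0.828 and 0.221. In WT leaf against WT floral stem 8 of 10 were called, against 60.3%: FIT, the 4 subgroup Ib genes, IMA1 (log2 3.46 ± 0.815) and NAS4 (log2 2.26 ± 0.742) higher and IRT1 lower. For IRT1 the fold was 15.8 with leaf set to its limit of 3 counts. It rests on 12 counts over the WT stem plants, whose own error it leaves out. The median log2 fold changes of the 10 genes, with groups at 0 set to their bounds, were 0.67, 5.14 and 3.91 in these 3 comparisons. NAS4 lost its call in WT root against WT leaf without WT root plant 1, and FER1 without WT root plant 2. Organs also differed in the levels of clock genes. The 6 evening genes summed to 117 to 151 CPM in WT root, 918 to 1040 CPM in WT leaf and 188 to 295 CPM in WT floral stem. The 4 morning genes summed to 26.2 to 37.4, 6.47 to 10.6 and 114 to 116 CPM in the same order. These differences cannot be told apart from organ here.

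Whether a line's effect differed between organs was tested as an interaction. None of the 10 genes was called by edgeR or DESeq2 for Epi 8 in root against leaf (0% of all genes called), in root against floral stem (0.316%) or in leaf against floral stem (0.29%), or for Epi 24 in root against floral stem (0%). FRO2 alone passed an unadjusted p, for Epi 8 in root against floral stem (log2 difference of effects 2.91 ± 1.06, unadjusted p = 0.0117, edgeR adjusted p = 0.291), where 9.4% of all genes passed; in the other 3 comparisons of effects 6.98%, 11% and 7.92% did, in the order given above. Its stem levels in that comparison were 0.667, 0 and 0.104 CPM in Epi 8 and 0.259, 0.412 and 2.02 CPM in WT. IRT1 in leaf and bHLH38 and bHLH100 in stem had groups at 0 and gave no usable difference of effects. IRT1, FIT, bHLH39 and bHLH101 were also too low in stem to test between lines. In all, Epi 8 and WT stems held 16 and 12 counts of IRT1 and 5 and 1 of FIT. They held 1 and 2 of bHLH39 and 5 and 7 of bHLH101. Epi 24 stems held 5, 4, 0 and 6 counts in the same order of genes. With so few counts, the comparisons with stem could not decide whether a line's effect differed between organs for these genes.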

How the data were processed

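RNA was sequenced from 27 libraries (9 groups of 3 plants) with a kit that does not mark strand. Whole-number read counts per gene were deposited by the authors, who used TrimGalore for trimming, STAR 2.7.3a for alignment against the TAIR10 assembly, QoRTs for counting and edgeR 3.26.8 for testing. All 1873 genes compared had the coordinates of the TAIR10.1 reference. Rows that name no gene were left out; reads without a feature were 3.935 to 6.175% of the total in root libraries, 0.681 to 0.995% in leaf and 4.499 to 5.94% in floral stem.

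Counts were analysed with edgeR 4.0.16 (TMM scaling, filterByExpr, quasi-likelihood test) in R 4.3.3, each organ over its 9 libraries, and over all 27 for WT organ contrasts and interactions. A call needed a Benjamini-Hochberg adjusted p under 0.05 over all genes and an absolute log2 fold change of at least 0.5. CPM per kb used exon length. The script was tested on simulated data. Alternatives were RLE scaling, DESeq2 1.42.0, no filter on low counts, a replicate block, no fold limit, only the 6 libraries compared, and leaving out each plant. From the wider list, genes called in a line comparison were named, and where fewer than 4 were called, the 4 of smallest unadjusted p; nearest profiles were the 5 other genes of smallest distance. The genes and lists were chosen with earlier results of these data known. Nothing in the sources says how plants of a group were grown relative to each other, so p-values measure the spread between these plants.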

Additional observations from a re-analysis of the deposited data

How the results depend on the processing

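The calls between lines rest on 3 plants a group, and leaving out 1 plant moved several log2 fold changes across 0. The extremes in Epi 8 against WT floral stem were IMA1 -2.84 to 0.00, NAS4 -3.21 to 0.20 and NAS1 -2.09 to 2.83. For Epi 24 against WT floral stem the extremes were FRO2 -1.49 to 0.33, IMA1 -0.53 to 1.22, NAS4 -2.27 to 0.05 and VTL1 -0.44 to 1.24. The extremes in Epi 8 against Epi 24 floral stem were NAS4 -2.36 to 1.59, FER1 -0.85 to 0.15 and NAS1 -1.13 to 3.77. The extremes in Epi 8 against WT root were NAS4 -0.09 to 0.61 and FER1 -0.41 to 0.02. For Epi 24 against WT root the extremes were IRT1 -0.40 to 0.62, FRO2 -0.23 to 0.72, bHLH38 -0.08 to 0.48, bHLH39 -0.06 to 0.40, bHLH100 -0.24 to 0.79, IMA1 -0.44 to 0.50, NAS4 -0.08 to 0.63 and FER1 -0.20 to 0.29. The extremes in Epi 8 against Epi 24 root were NAS4 -0.30 to 0.21. The extremes in Epi 8 against WT leaf were bHLH38 -0.35 to 0.22, bHLH39 -0.06 to 0.46, bHLH100 -0.04 to 0.55 and IMA1 -0.20 to 0.19. For Epi 10 against WT leaf the extremes were FRO2 -0.18 to 0.14, FIT -0.02 to 0.20, bHLH38 -0.05 to 0.45, bHLH101 -0.04 to 0.32 and IMA1 -0.15 to 0.44. The extremes in Epi 8 against Epi 10 leaf were FIT -0.10 to 0.11, bHLH39 -0.32 to 0.15, bHLH100 -0.31 to 0.28, bHLH101 -0.16 to 0.20, IMA1 -0.48 to 0.12 and NAS4 -0.07 to 0.23. For WT root against WT leaf the extremes were bHLH101 -0.14 to 0.49. For WT root against WT floral stem the extremes were NAS4 -0.21 to 1.11. For WT leaf against WT floral stem the extremes were FRO2 -1.16 to 0.67.

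The number of the 10 genes called stayed at 0 to 1 in Epi 8 against Epi 10 leaf when 1 plant was left out, and at 0 to 1 for the Epi 8 effect in leaf against floral stem, where NAS4 was called without Epi 8 stem plant 1. All other counts of called genes between lines were 0 under RLE scaling, DESeq2, no filter, no fold limit, the 6 libraries alone and each left-out plant. DESeq2 called more of the wider list than edgeR (YSL2 and YSL3 in stem, F6'H1 in root, FER4 in Epi 8 against WT leaf, and FER3 and FER4 in Epi 8 against Epi 10 leaf), and IRT2 in Epi 8 against Epi 24 root was called with no filter on low counts (adjusted p = 0.0201). The share of all genes that DESeq2 called is not given here. With root plants 1 of Epi 8 and WT left out together, chosen after seeing the data, values in Epi 24 against WT root changed sign to 0.62 for IRT1, -0.06 for bHLH39, -0.07 for bHLH100, -0.25 for IMA1, -0.08 for NAS4 and -0.05 for FER1, and NAS4 in Epi 8 against Epi 24 root became 0.14. FRO2 was then 0.73 and FIT 0.72 in Epi 24 against WT root. The causes were not tested.

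Plant numbers did not pair the samples: the correlation of same-numbered plants' deviations ran from -0.403 to 0.241. With the replicate block, 0 of the 10 genes were called between lines, 7 in WT root against WT leaf, 7 in WT root against WT floral stem and 6 in WT leaf against WT floral stem. The calls absent under the block were FER1 in WT root against WT leaf (0.91, edgeR adjusted p = 0.157), and IMA1 and NAS4 in WT leaf against WT floral stem (1.59 and 0.43, adjusted p = 0.196 and 0.738). Under the block the sign changed for IMA1 in Epi 24 against WT floral stem (-0.43), NAS4 in Epi 8 against Epi 24 floral stem (-0.23), IRT1 in Epi 24 against WT root (0.13), NAS4 in Epi 8 against Epi 24 root (0.07), FRO2 in Epi 10 against WT leaf (-0.01), bHLH39 in Epi 8 against Epi 10 leaf (0.02), and IMA1 and NAS4 in WT root against WT floral stem (-1.40 and -2.16).

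Depth limits the scarce genes most. In floral stem 6 of the 10 genes were too low to test between lines, and in leaf IRT1 was.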

Other observations

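BGLU42, a glucosidase that releases root coumarins from their sugar, was picked out after its values were seen. It had 40.1, 31.6 and 27.3 CPM in Epi 8 roots, against 27.2, 22.6 and 24.5 CPM in WT roots. In leaf it had 32.9, 34 and 32 CPM in Epi 8, against 36.2, 37.1 and 38.2 CPM in WT. The lines did not overlap in either organ, barely so in root, and lay in opposite order. Plants did not overlap in 13.3% of all genes in root and 25.7% in leaf. BGLU42 was also lower in Epi 8 stem than in WT stem. URI, a regulator on the wider list, moved the other way, lower in Epi 8 root and higher in Epi 8 leaf than in WT. It too was picked out after its values were seen. None of these differences of BGLU42 and URI was called by edgeR. For BGLU42, the difference between the Epi 8 effects in root and leaf was 0.60 ± 0.211 on the log2 scale (unadjusted p = 0.00922, edgeR adjusted p = 0.516), which did not pass the threshold.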
